A study of Mus musculus with 2 samples.

Results

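The 34 genes described here encode proteins of the podocyte, the epithelial cell of the kidney glomerulus that holds back plasma proteins, or are mutated in or targeted by antibodies in nephrotic disease. They were taken as a list of symbols and matched by stable identifier to rows of both the gene and the transcript tables, 34 of 43346 mouse genes. All 34 symbols matched. The tissue was whole kidney of the mouse strain B6NCrl, taken from embryos aged 16.5 days, when new glomeruli are still being added while older ones mature. Total RNA longer than 200 nt was sequenced in 2 libraries that form 1 group, with 10 ng of RNA entering each and spike-in RNAs added. The labels call the libraries biological replicates 1 and 2, name the embryos healthy and pool both sexes, and give 41 embryos for replicate 2. How many embryos went into replicate 1 was not given in the sources used here. With 1 group there is no treatment, genotype or second tissue to compare, so the comparisons are between members, between classes of members and between both libraries.

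Podocytes wrap the glomerular capillaries with foot processes, and neighbouring foot processes are bridged by the slit diaphragm, a cell junction built from immunoglobulin superfamily proteins such as nephrin. The cytoplasmic tails of these proteins recruit adaptors that tie the junction to the actin cytoskeleton, while a negatively charged glycoprotein coat on the apical side keeps the foot processes apart. Mutations in slit diaphragm, actin and transcription factor genes cause nephrotic syndrome or focal segmental glomerulosclerosis, and so do mutations in some genes used by nearly all cells, such as those for coenzyme Q synthesis. In the mouse, glomeruli form over a long period of late gestation and the first days after birth, so an embryonic kidney holds podocytes of several ages among many other cells.

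Library totals were 35255968 expected counts for replicate 1 and 38706236 for replicate 2, with 34261328 and 37900132 of them on mouse genes, and 10 counts on a transcript with 2 kb of effective length came to 0.218 and 0.201 TPM. The kidney markers Pax8 (131 and 112 TPM in replicates 1 and 2) and Pax2 (27.3 and 20.0 TPM) and the podocyte and progenitor factor Wt1 (116 and 104 TPM) were all present. Markers of other cells were present too: 8 of 8 endothelial, 8 of 8 mesangial and mural, 6 of 6 macrophage, 5 of 6 skeletal muscle and 6 of 8 nerve genes reached 1 TPM in both libraries. In such bulk tissue fewer cells of a type and less RNA per cell cannot be told apart. TPM is a length-scaled share of all transcripts in a library, and all levels below are in TPM unless another unit is named.

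By median TPM, the slit diaphragm membrane genes were the lowest class of the 34, and the actin and broadly expressed disease genes were the highest. With detection set at 1 TPM in both libraries, 31 of 34 members were detected, beside 62.2% of all protein-coding genes. The 3 below that line were Lmx1b, Kirrel2 and Trpc6, and only Kirrel2 stayed under 1 TPM in both libraries. By posterior mean TPM, another deposited estimate, Kirrel2 was at 1.26 and 1.25 in replicates 1 and 2. Mean levels ran from 0.885 TPM for Trpc6 to 583 TPM for Arhgdia, a 659-fold range. Of the 34 members, 20 had a mean above 10 TPM, 2 exceeded 100 TPM and 11 lay under 5 TPM. The median detected protein-coding gene stood at 20.8 TPM, with 14 members above it and 20 below.

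By class, the median of the mean levels was 3.17 ± 0.21 TPM (SD over the medians of both libraries, n = 2) for the 6 slit diaphragm membrane genes. It was 6.69 ± 0.24 TPM for the 3 membranous nephropathy antigens and other podocyte membrane genes, and 8.22 ± 0.94 TPM for the 2 transcription factors. The 3 apical membrane genes had a median of 11.4 ± 0.59 TPM and the 8 slit diaphragm adaptors and signalling genes one of 12.9 ± 1.3 TPM. The 4 broadly expressed disease genes stood at 34.3 ± 0.53 TPM and the 8 actin cytoskeleton genes at 38.8 ± 2.3 TPM. The last 2 classes therefore lay above the median detected gene and the other 5 below it. Without length scaling, in CPM of expected counts, the apical class also lay above it, by 0.45 on the log2 scale, against -0.87 in TPM, and came second to the actin class, ahead of the broadly expressed disease genes at 0.21. Classes overlapped widely, because the actin class alone spanned 1.59 TPM for Inf2 to 583 TPM for Arhgdia. Class medians over 2 to 8 genes describe these lists and carry no test.

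**Figure D1:**
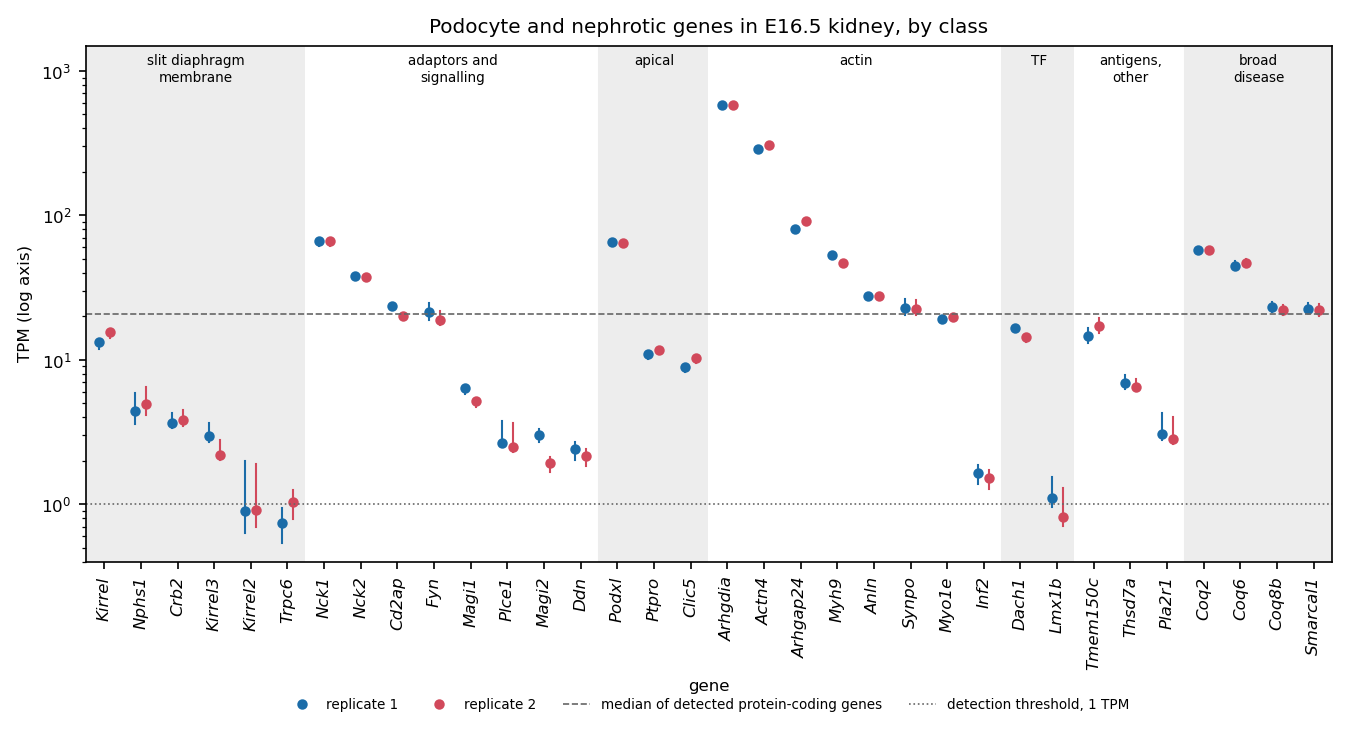
Level of each of the 34 genes in TPM (log axis), grouped by class and sorted within it. Points are the 2 libraries, vertical lines the deposited lower and upper TPM bounds, the dashed line the median of detected protein-coding genes (20.8 TPM) and the dotted line the detection threshold of 1 TPM. Most slit diaphragm membrane genes sit near the bottom, Arhgdia and Actn4 at the top, and both libraries nearly coincide for most genes.

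Among the slit diaphragm membrane genes, Kirrel led. Kirrel encodes NEPH1, an immunoglobulin superfamily partner of nephrin, and stood at 13.3 TPM in replicate 1 and 15.5 TPM in replicate 2. Nphs1, which encodes nephrin itself, stood at 4.46 and 4.97 TPM. Kirrel exceeded Nphs1 by 3.06-fold on the mean, a log2 difference of 1.58 in replicate 1 and 1.64 in replicate 2, and the values of the genes did not overlap. On transcripts annotated as protein coding the difference was 8.33-fold, since much of the Nphs1 level lay on others. Crb2, a Crumbs polarity protein of the podocyte surface, followed at 3.65 and 3.84 TPM. Kirrel3, which encodes NEPH2 and is also a neuronal adhesion molecule, was at 2.98 and 2.19 TPM. Kirrel2, the gene for NEPH3, was at 0.90 and 0.91 TPM on 35 and 51 counts. Trpc6, a calcium-permeable cation channel mutated in focal segmental glomerulosclerosis, was at 0.74 and 1.03 TPM on 50 and 75 counts. The order of the 3 Kirrel genes, Kirrel over Kirrel3 over Kirrel2, was the same in both libraries, whereas the order of Kirrel2 and Trpc6 changed between them. Crb2 was above Kirrel3 in both libraries, but their deposited bounds overlapped in replicate 1.

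The relatives of these genes were not at the same level. Kirrel exceeded Kirrel3 by 5.58-fold, with log2 differences of 2.16 and 2.82 in replicates 1 and 2, and Kirrel3 exceeded Kirrel2 by 2.86-fold. Both orders held in each library. Crb2 shares 113 exonic bases on the opposite strand with Dennd1a, which stood at 13.3 and 12.4 TPM, and whether the counting used strand was not given in the sources used here. Reads from such overlaps can count for either gene.

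Nphs1 lies on chromosome 7 at 30458315-30487223 of mm10 on the plus strand, next to Kirrel2 on the minus strand, and the starts of the full-length transcripts Nphs1-201 and Kirrel2-201 lie 2210 nt apart, head to head. Although neighbours, the genes differed in level: Nphs1 exceeded 4 TPM and Kirrel2 stayed under 1 TPM in both libraries. Most of the Nphs1 level fell on transcripts that are not annotated as protein coding. The leading entry was Nphs1-205, a 752-nt transcript of 9 exons with the annotated type nonsense-mediated decay, the pathway that degrades messages with an early stop codon. It took 44.8% of the gene's TPM in replicate 1 and 49.6% in replicate 2. The full-length coding transcript Nphs1-201, with 30 exons, 4608 nt and 1256 codons, took 37.2% and 36.2%. In counts the order was the reverse: Nphs1-201 held 171.7 and 202.1 expected counts, 81.0% and 80.2% of the gene, and Nphs1-205 held 29.9 and 40.1. A short transcript turns few reads into a large TPM, and the deposited bounds of Nphs1-205 were wide, 0.968 to 2.91 TPM in replicate 1 and 1.39 to 3.31 TPM in replicate 2. On coding transcripts alone Nphs1 was at 1.66 and 1.80 TPM, which is 2.73-fold below its gene level.

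What sets Nphs1-205 apart inside the gene is an extra exon of 62 nt at chr7:30478298-30478359 that Nphs1-201 skips. The other 690 bases of Nphs1-205 are also in Nphs1-201, and reads on the exon itself were not given in the sources used here. The sequences are shown because that exon is the only part of Nphs1-205 that Nphs1-201 lacks. The first line is the junction as Nphs1-201 joins it. The second is Nphs1-205 across the same place, with the extra exon in capitals and 15 bases of each neighbour in lower case (5′ to 3′, plus strand, GRCm38).
Nphs1-201 junction: cagagcagcctccgggacccccgaggctgc
Nphs1-205 exon: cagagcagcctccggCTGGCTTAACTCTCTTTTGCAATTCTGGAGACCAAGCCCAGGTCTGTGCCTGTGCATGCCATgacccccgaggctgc
The flanking bases are identical in both transcripts. The antisense gene Nphs1os shares 597 exonic bases with Nphs1 on the opposite strand but was at 0.04 and 0.13 TPM.

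The 8 adaptors and signalling genes were all detected, with Nck1 and Nck2 highest. Nck1 and Nck2 encode SH2 and SH3 adaptors that bind phosphorylated nephrin and recruit actin regulators. Nck1 was at 66.5 and 66.2 TPM and Nck2 at 37.8 and 37.4 TPM, a difference of 0.82 on the log2 scale (0.81 and 0.82 in replicates 1 and 2). Cd2ap, an adaptor between nephrin and actin, was at 23.8 and 20.2 TPM. Fyn, a Src-family kinase that phosphorylates nephrin, was at 21.3 and 18.8 TPM. Both lay close to the median detected gene. The scaffolds Magi1 (6.35 and 5.17 TPM) and Magi2 (3.04 and 1.92 TPM) belong to the membrane-associated guanylate kinase family. Magi1 exceeded Magi2 by 2.32-fold, with log2 differences of 1.06 and 1.43. Plce1, a phospholipase C mutated in childhood nephrotic syndrome, was at 2.64 and 2.51 TPM. Ddn, which encodes dendrin, a protein shared by slit diaphragm and neuronal dendrites, was at 2.40 and 2.17 TPM. Plce1, Magi2 and Ddn have bounds that overlap in at least 1 library, so their order is not fixed by these values. Ddn overlaps 177 exonic bases of the opposite-strand gene B130046B21Rik, which stood at 1.82 and 1.96 TPM.

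Partners of the slit diaphragm outside the 34 were detected in 12 of 12 cases, with a median of 30.8 TPM. Ctnnb1, the catenin of cadherin junctions and of Wnt signalling, led with 422 and 446 TPM, followed by the scaffold Iqgap1 at 75.6 and 77.0 TPM and the adaptor Grb2 at 69.1 and 71.6 TPM. The lowest of them, the ubiquitin ligase Cblb, was at 11.0 and 7.95 TPM, which is above 5 of the 6 slit diaphragm membrane genes in both libraries.

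Nck1 and Magi2 each had TPM on transcripts from 2 groups of annotated starts, where starts within 500 nt of each other were taken as 1 group. For Nck1 the downstream start at position 100506856 of chromosome 9, that of Nck1-201, took 56.7% of the gene's TPM in replicate 1 and 61.0% in replicate 2. The upstream group around position 100546122 took the other 43.3% and 39.0%. That group was led by Nck1-203, a 734-nt transcript with an annotated frame of 206 codons, at 28.9% in each library. Nck1-204, of 600 nt, took 7.61% and 4.19%, and Nck1-202 took 6.81% and 5.94%. Nck1-201 has 3 exons and 313 codons, against 377 codons in the upstream Nck1-202, so the starts differ in the annotated protein. The transcripts also differ at their 3′ ends (1513 nt for Nck1-201, 4476 nt for Nck1-202), so the split is one between whole transcripts. For Magi2 the upstream start at 19227051 of chromosome 5, that of Magi2-201 with 1275 codons, took 86.8% and 80.7%. The downstream start at 19907518, that of Magi2-202 with 1098 codons, took 13.2% and 19.3%. In TPM the downstream Magi2 group was at 0.40 and 0.37, and the upstream group at 2.64 and 1.55, so the lower Magi2 level of replicate 2 fell on the upstream group. The lengths of both Magi2 transcripts differ between the M4 annotation of the files and the M21 annotation used for names.

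The promoters of these 4 starts are printed because the annotated starts differ in sequence type. They are RefSeq promoter windows on GRCm38.p6, 5′ to 3′ on the gene's strand, with every CpG in capitals. CpG observed over expected is the number of CpG dinucleotides over that given by the C and G content of the 250 bases before the start.
Nck1 downstream, chr9:100506857-100507106, minus strand: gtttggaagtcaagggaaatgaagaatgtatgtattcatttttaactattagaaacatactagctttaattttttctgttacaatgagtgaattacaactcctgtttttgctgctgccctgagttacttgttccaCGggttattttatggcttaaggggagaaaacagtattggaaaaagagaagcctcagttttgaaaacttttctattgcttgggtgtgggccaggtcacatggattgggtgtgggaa
Nck1 upstream, chr9:100546135-100546384, minus strand: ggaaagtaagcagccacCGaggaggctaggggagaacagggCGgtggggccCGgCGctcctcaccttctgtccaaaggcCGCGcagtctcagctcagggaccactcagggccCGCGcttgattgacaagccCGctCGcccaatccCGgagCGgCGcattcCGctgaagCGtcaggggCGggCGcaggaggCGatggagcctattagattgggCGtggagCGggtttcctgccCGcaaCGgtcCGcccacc
Magi2 upstream, chr5:19226796-19227035, plus strand: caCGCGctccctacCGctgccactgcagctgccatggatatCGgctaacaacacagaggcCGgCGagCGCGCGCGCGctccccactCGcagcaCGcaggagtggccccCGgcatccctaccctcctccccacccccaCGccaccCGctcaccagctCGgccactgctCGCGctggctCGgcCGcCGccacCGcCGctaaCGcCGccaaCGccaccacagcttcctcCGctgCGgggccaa
Magi2 downstream, chr5:19907268-19907517, plus strand: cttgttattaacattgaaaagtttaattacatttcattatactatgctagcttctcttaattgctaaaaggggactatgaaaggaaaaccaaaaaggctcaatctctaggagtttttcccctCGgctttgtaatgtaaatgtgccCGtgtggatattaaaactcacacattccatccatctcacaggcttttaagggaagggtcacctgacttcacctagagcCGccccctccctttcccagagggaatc
CpG observed over expected was 0.124 at the downstream and 0.808 at the upstream Nck1 start, and 0.991 at the upstream and 0.289 at the downstream Magi2 start. The transcripts with the larger share of TPM thus had the CpG-poor annotated start in Nck1 and the CpG-rich one in Magi2, in both libraries. These shares belong to whole transcripts, and use of the starts themselves was not measured.

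**Figure D2:**
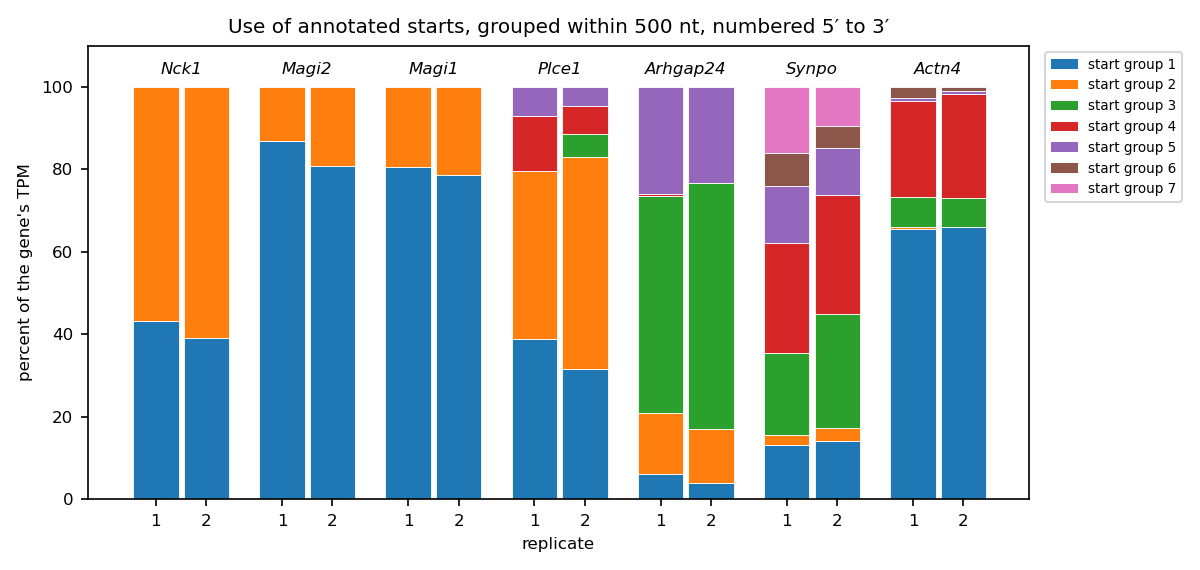
Percent of each gene's TPM (vertical axis) on groups of annotated starts for 7 members, with a pair of bars per gene for replicates 1 and 2. Groups are numbered 5′ to 3′ and join starts within 500 nt. Nck1, Magi2, Magi1 and Actn4 have similar bars in both libraries, and Synpo spreads over 7 groups.

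RefSeq promoter windows were found for 28 of the 34 members (35 windows) and none was matched for Arhgap24, Coq8b, Ddn, Kirrel3, Podxl and Synpo. The set of all 32851 windows was not limited to protein-coding or detected genes. The members are protein coding and 31 of 34 were detected, so the sets are unlike. The part of that in the contrasts below was not tested. Over the 250 bases before the start, the median CpG observed over expected was 0.638 for the 35 windows and 0.373 for all 32851. It ran from 0.124 at the downstream Nck1 start to 1.12 at Kirrel. By class the medians were 0.483 for the 2 apical windows, 0.506 for the 5 slit diaphragm membrane windows and 0.569 for the 5 windows of antigens and other podocyte membrane genes. They were 0.621 for the 3 windows of broadly expressed disease genes, 0.687 for the 10 adaptor and signalling windows, 0.722 for the 8 actin windows and 0.750 for the 2 transcription factor windows. The median GC content of the same 250 bases was 62.4% for the 35 windows and 52.4% for all, and its part in the motif counts that follow was not tested. The G-rich zinc finger motif GNGNGGGNG, searched on both strands, was in 27 of 35 windows (77.1%) and in 35.8% of all windows. The GC box GGGCGG, which that motif can overlap, was in 60.0% against 32.7%. An E-box (CANNTG) was in 57.1% against 66.2%, a CCAAT box in 37.1% against 33.8%, and a TATA box (TATAAA) in 1 window against 12.4% of all. The homeodomain core TAATTA was in 1 window, that of the downstream Magi2 start, against 4.84% of all. Several windows overlap annotated exons of either strand, and those of Nphs1, Pla2r1 and Plce1 do so over all 250 bases. The windows of Inf2 and those of Tmem150c overlap one another, so some bases count more than once. Counted by gene, the zinc finger motif was in 22 of 28 members. A match is a run of letters and not a measured binding site.

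The apical membrane genes were led by Podxl, which encodes podocalyxin, the main sialoglycoprotein of the foot process coat that is also made by endothelium. Podxl was at 65.9 and 64.5 TPM, with 99.2% and 98.6% of that on the coding transcript Podxl-201. Ptpro, a receptor tyrosine phosphatase also called GLEPP1, was at 11.0 and 11.8 TPM. Clic5, a chloride intracellular channel protein that associates with ezrin, was at 8.93 and 10.3 TPM. Podxl therefore exceeded both other apical genes in each library, and Ptpro was slightly above Clic5 in each, with bounds apart. Linkers and relatives of podocalyxin were detected in 6 of 6 cases with a median of 92.5 TPM. The membrane to actin linker Ezr was at 197 and 208 TPM, the scaffold Slc9a3r1 at 135 and 143 TPM and Slc9a3r2 at 90.7 and 96.8 TPM, and the lowest, the podocalyxin relative Podxl2, at 37.9 and 45.5 TPM. Endothelial markers, which accompany Podxl in endothelium, summed to 615 and 630 TPM, from Ehd3 at 20.9 and 17.1 TPM to Egfl7 at 211 and 224 TPM. Their part in the Podxl level was not tested.

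The actin class held the 3 highest members of all. Arhgdia encodes a GDP dissociation inhibitor that keeps small GTPases in the cytosol and stood at 583 and 584 TPM. Actn4, the actin crosslinker alpha-actinin 4 that is mutated in dominant glomerulosclerosis, was at 290 and 309 TPM. Arhgap24, a GTPase-activating protein for Rac, was at 80.7 and 91.0 TPM. Differences between these genes far exceeded those between libraries. Myh9, the heavy chain of nonmuscle myosin IIA, was at 52.9 and 46.6 TPM. Anln, the cytokinesis scaffold anillin, was at 27.9 and 27.7 TPM. Synpo, which encodes the actin-bundling protein synaptopodin of mature foot processes, was at 22.8 and 22.4 TPM. Myo1e, a class I myosin, was at 19.2 and 19.7 TPM, and it and Synpo lay near the median detected gene. Inf2, a formin that assembles and severs actin filaments, was the lowest of the class at 1.65 and 1.52 TPM on 171 counts in each library.

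Set against paralogs, Actn4 exceeded Actn1 (34.2 and 34.6 TPM) by 8.71-fold, with log2 differences of 3.09 and 3.16. Myh9 was below Myh10, the heavy chain of nonmuscle myosin IIB (127 and 123 TPM), by 2.51-fold, and by 1.41-fold on transcripts annotated as protein coding. Of 15 paralogs of the actin class and related members, 14 were detected with a median of 6.33 TPM. The highest were Clic4 (171 and 192 TPM), Myh10 and Myo1c (68.0 and 72.1 TPM), and the lowest was the synaptopodin relative Synpo2l (0.75 and 1.00 TPM). The muscle actinins Actn2 (5.97 and 6.68 TPM) and Actn3 (9.15 and 7.94 TPM) were far below Actn4. They were named after their values were seen.

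The transcripts of the actin members were uneven. Actn4-201, with 912 codons, took 64.6% and 65.1% of Actn4 TPM. Actn4-206, a processed transcript without an annotated reading frame that begins with its own 88-nt exon inside the gene, took 23.3% and 25.2%. Among Arhgap24 transcripts the intermediate start of Arhgap24-204 took 52.6% and 59.5%, the downstream Arhgap24-201 took 25.9% and 23.4%, and the most upstream group took 6.14% and 3.83%. Arhgap24-204 and Arhgap24-201 differ in annotated codons by little (654 and 657). The lengths of both differ between the M4 annotation of the files and the M21 annotation that gave these codons. Synpo, on chromosome 18, spread over 7 start groups, the leading one with 26.7% and 29.1%. Its leading transcript was Synpo-201 (901 codons) in replicate 1 with 26.7% and Synpo-206 (1100 codons) in replicate 2 with 27.4%. The other of the pair had 19.9% (Synpo-206) in replicate 1 and 25.3% (Synpo-201) in replicate 2, so neither stood clear of the other.

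Of the 2 transcription factors, Dach1 was at 16.7 and 14.3 TPM and Lmx1b at 1.10 and 0.82 TPM. Dach1 is a transcriptional cofactor of the Dachshund family, and Lmx1b is the LIM homeodomain factor mutated in nail-patella syndrome. The 2 genes did not overlap in level. Lmx1b rested on 119 and 93 counts. Other podocyte transcription factors were detected in 7 of 7 cases, with a median of 21.7 TPM. Tcf21, also high in kidney stroma, led with 291 and 311 TPM, ahead of Wt1 at 116 and 104 TPM. The lowest, Foxc1, was at 3.93 and 2.88 TPM. All 7 exceeded Lmx1b in both libraries.

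The membrane antigens were low. Thsd7a, a thrombospondin repeat protein and antigen of membranous nephropathy, was at 6.86 and 6.52 TPM. Pla2r1, the phospholipase A2 receptor and the most frequent antigen of that disease in adults, was at 3.09 and 2.83 TPM. Thsd7a exceeded Pla2r1 by 2.26-fold, with log2 differences of 1.15 and 1.20. Tmem150c, a transmembrane protein linked to mechanically activated currents, was at 14.6 and 17.2 TPM and above both. Podocyte matrix and signal genes outside the 34 were detected in 11 of 11 cases, with a median of 46.0 TPM. The integrin ligand Npnt was at 157 and 166 TPM, the proteoglycan Agrn at 89.0 and 92.7 TPM and the laminin chain Lamc1 at 89.1 and 87.8 TPM. The lowest was Col4a3, a collagen IV chain of the mature glomerular basement membrane, at 3.34 and 4.03 TPM.

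Pla2r1 divided its TPM between the coding Pla2r1-201 and the intron-retaining Pla2r1-203. Pla2r1-203 had 46.2% in replicate 1 and 33.5% in replicate 2, and Pla2r1-201 had 46.0% and 64.7%. The leading transcript therefore differed between libraries. In counts the coding transcript was ahead in both, with 229 and 320 counts against 114 and 82.5. Pla2r1-203 reads on from a shared exon into 1293 nt of intron on chromosome 2, and the sequences around that exon end are shown because they are what separates the 2 transcripts (minus strand, 5′ to 3′, GRCm38, intron in capitals).
Pla2r1-201 junction: tctgacgggtcacctgttgtctcttcattt
Pla2r1-203 exon end and intron, chr2:60452387-60452416: tctgacgggtcacctGTAAGTTGTTTCACA
Total RNA includes unspliced precursor, and reads from it cannot be told apart from an intron-retaining transcript in these tables.

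The broadly expressed disease genes were detected in 4 of 4 cases and formed the narrowest class, within a 2.57-fold range. Coq2, the prenyltransferase of coenzyme Q synthesis, was at 57.5 and 57.4 TPM. Coq6, a monooxygenase of the same pathway, was at 44.5 and 47.1 TPM. Coq8b, an atypical kinase family member also called Adck4, was at 23.3 and 22.1 TPM. Smarcal1, a DNA annealing helicase mutated in Schimke immuno-osseous dysplasia, was at 22.6 and 22.2 TPM. Coq2 and Coq6 lay above the other 2 in both libraries, and Coq8b and Smarcal1 did not differ beyond their deposited bounds. Coq8b exceeded its paralog Coq8a (14.1 and 17.9 TPM) by 1.42-fold, with log2 differences of 0.73 and 0.31. Their deposited bounds overlapped in replicate 2, and by posterior mean the log2 difference was 0.22.

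Coq8b was among the members with a sizeable share on transcripts that are not annotated as coding. The nonsense-mediated decay type Coq8b-204 took 19.2% of its TPM in replicate 1 and 8.18% in replicate 2, and the coding Coq8b-201 took 58.1% and 70.0%. Coq8b-204 lacks, among other differences, an exon of 142 nt at chr7:27250287-27250428 that lies in the reading frame of Coq8b-201, and its annotated frame has 304 codons in place of 533. That exon is shown in capitals, with 15 bases of each neighbouring exon of Coq8b-201 (plus strand, 5′ to 3′, GRCm38), because it is the piece whose loss goes with the shorter frame.
Coq8b-201 exon: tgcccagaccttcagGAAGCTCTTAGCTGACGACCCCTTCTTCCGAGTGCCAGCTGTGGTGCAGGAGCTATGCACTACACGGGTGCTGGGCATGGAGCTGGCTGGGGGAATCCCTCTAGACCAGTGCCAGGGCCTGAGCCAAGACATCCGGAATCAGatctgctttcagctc
Coq6 had 12.3% and 15.7% on the processed transcript Coq6-205, and Coq2 had 10.4% and 12.1% on Coq2-202 of the nonsense-mediated decay type. Coq6 shares 128 exonic bases with Fam161b on the opposite strand, which was at 3.28 and 3.87 TPM.

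Across the members, transcripts annotated as coding held a median of 98.6% of a gene's TPM, beside 98.3% for all detected protein-coding genes. Coding transcripts held over 90% in both libraries in 20 of the 34 members, beside 64.3% of detected protein-coding genes. They held under 80% in both libraries in 7 of 34, namely Nphs1, Pla2r1, Coq8b, Thsd7a, Synpo, Actn4 and Coq6, beside 20.9% of detected genes. Of the 34, only Nphs1 was under 50% in both, beside 7.05% of detected genes, so these counts are near the background. For Thsd7a the remainder was mostly 1 transcript of 10998 nt (27.4% and 20.5% of TPM) that has no entry in M21, so its type is not known here. Counted in expected counts in place of TPM, 3 members were under 80% in both libraries, namely Pla2r1, Thsd7a and Coq6, beside 12.7% of detected genes.

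Among the 25 detected members with 2 or more listed transcripts, 22 had the same leading transcript in both libraries, beside 91.7% of all such protein-coding genes. The 3 that changed were Kirrel3, Pla2r1 and Synpo. Kirrel3-206 led with 49.6% in replicate 1 but had 7.59% in replicate 2, where Kirrel3-208 led with 66.4%, and 3607 of the 4108 bases of Kirrel3-206 are also in Kirrel3-208. A transcript not annotated as coding led in 1 or both libraries in 2 of the 25, Nphs1 and Pla2r1, beside 10.9% of all such genes. Neither share is far from its background.

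**Figure D3:**
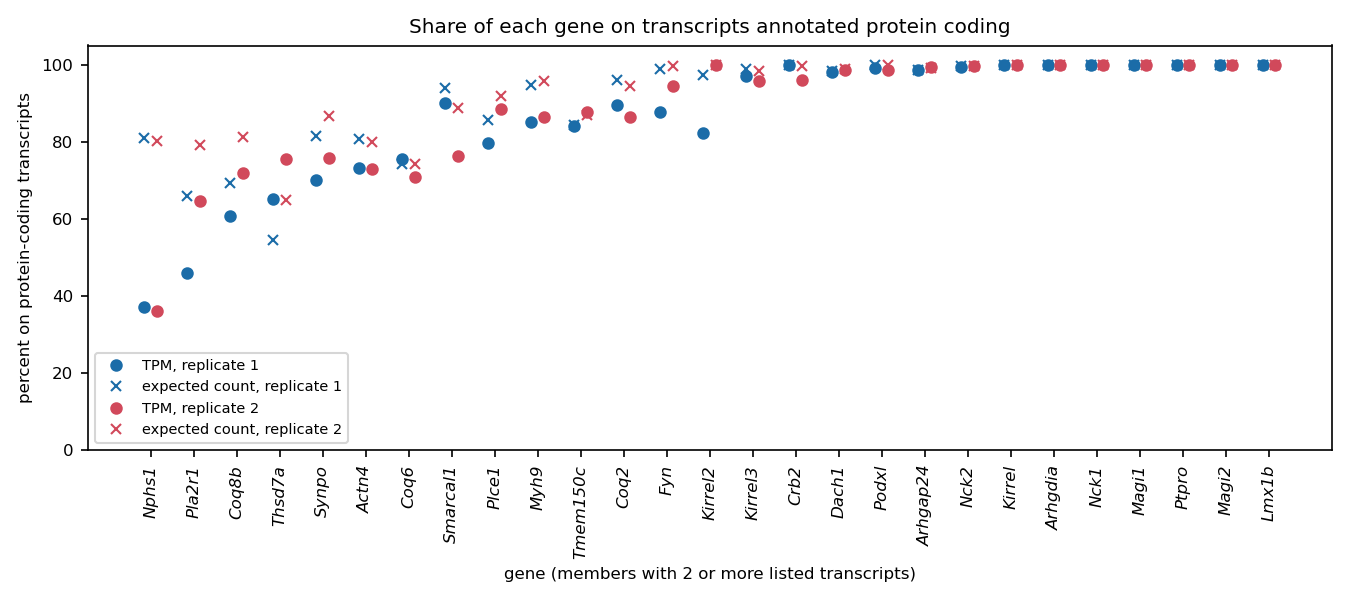
Percent of each gene on transcripts annotated as protein coding, for the 27 members with 2 or more listed transcripts, sorted by the mean percent of TPM. Circles are percent of TPM, crosses percent of expected counts, and colours the 2 libraries. Nphs1 stands at the left with 37.2% and 36.2% of TPM and over 80% of counts, and the genes on the right reach 100%.

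Several other members used more than 1 coding transcript. Kirrel-201, with 634 codons, took 46.3% and 54.4% of Kirrel TPM, and Kirrel-203, with 789 codons and a longer 3′ end, took 45.8% and 32.8%. TPM is scaled to length, so in counts the longer Kirrel-203, of 7236 nt, weighs more than these percents show. Of Dach1, Dach1-201 took 79.1% and 81.5% and Dach1-202, which adds an exon of 156 nt, took 19.0% and 17.3%. Of Fyn, Fyn-202 (537 codons) took 58.6% and 70.4%. Ptpro-203 (1198 codons) took 79.3% and 65.7% and Ptpro-201 (1226 codons) took 19.9% and 34.3%. The lengths of these Ptpro transcripts also differ between M4 and M21. These members had the same leading transcript by TPM in both libraries, while their shares moved.

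The 2 libraries differed little over these genes. None of the 34 members passed a 2-fold difference between replicates in scaled counts, beside 2.32% of 15362 genes whose mean was 1 CPM or more (counts scaled to library size). The median absolute log2 ratio of replicate 2 over replicate 1 was 0.11 for the members and 0.11 for all genes. Ratios were below 0 for 18 members and above 0 for 16. With 1 library on each side these ratios have no test. Scaling by spike-in counts in place of gene counts moved the median of all genes from 0.01 to 0.43 and that of the members from 0.00 to 0.42, and the members' ratios then lay above 0 in 31 cases, so directions are relative to the median gene.

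At the low end of these ratios were Magi2 (-0.63), Kirrel3 (-0.48), Lmx1b (-0.47) and Magi1 (-0.29). At the high end were Trpc6 (0.45), Kirrel2 (0.41) and Clic5 (0.20). These 7 were named after their values were seen. Trpc6 and Kirrel2 rested on 75 counts or fewer in each library. The deposited TPM bounds of both libraries were apart in 8 of the 31 detected members, beside 21.2% of detected protein-coding genes. Replicate 1 was higher in Myh9, Cd2ap, Dach1, Magi1 and Magi2, and replicate 2 in Arhgap24, Kirrel and Clic5. The members' share is near that background. For 3 members, Synpo, Fyn and Pla2r1, the count ratio and the TPM ratio had opposite signs.

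Some markers of other cells moved between the libraries as well. Of the 6 nerve markers that entered, 3 were more than 2-fold lower in replicate 2 (Th at -1.06, Tubb3 at -1.19 and Snap25 at -1.18, all on the log2 scale), and the list's median was -0.78. Its summed level was 54.8 TPM in replicate 1 and 33.0 TPM in replicate 2, with Sox10 under 1 TPM in both. Among some members that neurons also express, a set not fixed in advance, Magi2, Kirrel3 and Lmx1b were lower in the same library and had low counts. Ddn was at -0.15, Fyn at 0.06 and Synpo at 0.08 on the log2 scale. The highest ratio of any member was that of Trpc6, at 0.45. The part of nerve cells in these ratios was not tested. Mesangial and mural markers summed to 617 and 934 TPM, with Acta2 at 305 and 564 TPM. The median log2 ratio of that list was 0.09, with Acta2 at 0.89, Tagln at 0.95, Cspg4 at 0.08 and Gata3 at -0.15. Skeletal muscle markers summed to 96.6 and 196 TPM, with Acta1 at 48.3 and 139 TPM. Their median log2 ratio was 0.53 over the 5 that entered, with Acta1 at 1.52 and Mylpf at -0.14. Parietal epithelial markers summed to 351 and 319 TPM. That list includes the kidney markers Pax8, at 131 and 112 TPM, and Pax2, so its sum is not that of parietal cells alone. Macrophage markers summed to 123 and 130 TPM, and no marker of these lists was listed at 0. The part of these cells in any member's ratio was not tested.

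**Figure D4:**
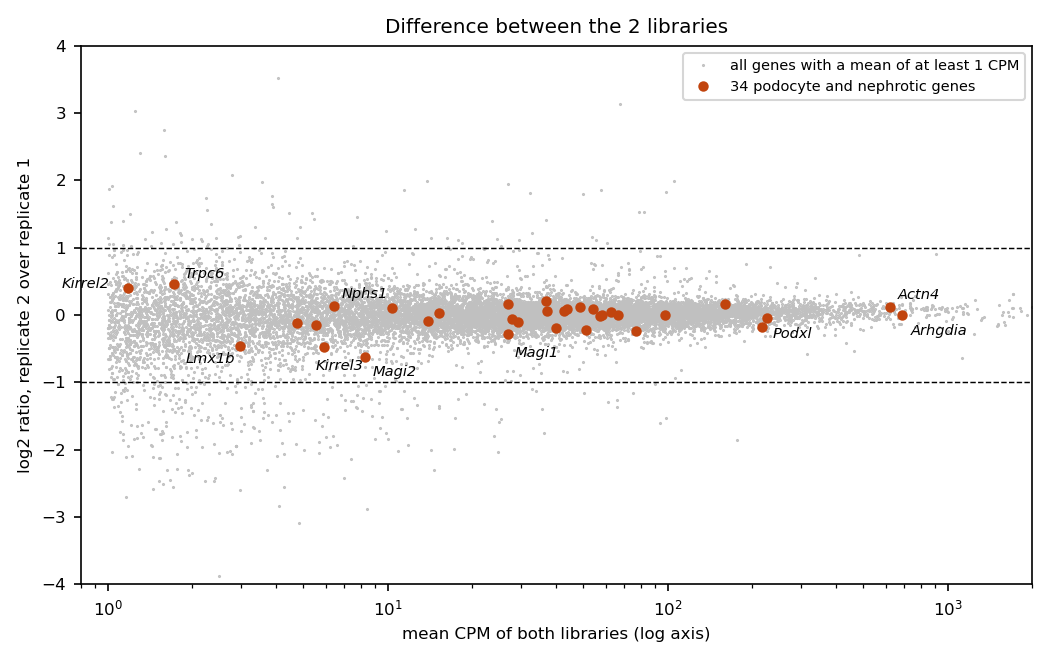
Log2 ratio of replicate 2 over replicate 1 (vertical axis) against the mean CPM of both libraries (log axis), for all genes whose mean was 1 CPM or more in grey and the 34 members in orange. Dashed lines mark a 2-fold difference, and 35 genes lie outside the plotted range. All members lie between the lines, and those farthest from 0 (Magi2, Kirrel3, Lmx1b, Trpc6 and Kirrel2) have low counts.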

How the data were processed

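Total RNA longer than 200 nt, isolated with a mirVana kit per the labels, was sequenced in 2 libraries. Gene and transcript tables were deposited for each. In the deposited expected counts, estimated counts, a read shared by several genes is split among them, and 10 of the 34 members had counts that were not whole (more than 0.005 from a whole number). The authors made TPM by scaling to length and to 1 fixed sum per library, and the deposited FPKM also adjusts for length and depth. Upper and lower TPM bounds deposited by the authors are read as a signal at or above 0. They belong to the posterior mean, so a TPM can lie outside them, as for Arhgdia. The deposited percent of a transcript within its gene refers to TPM. Per the deposited text notes the assembly is mm10 and the annotation M4. Aligner, quantifier and strand setting were not given in the sources used here.

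Names, types and coordinates came by stable identifier from GENCODE M21 (GRCm38); of 161 listed transcripts of the members 160 were found, 24 of them with another length. Entries that are no mouse gene took 2.82% and 2.08% of counts and stayed out of library sizes. For the pools, expected counts were rounded, and edgeR 4.0.16 under R 4.3.3 gave TMM factors and log2 ratios with a prior count of 2. DESeq2 1.42.0 gave size factors for an alternative. Other steps used Python 3.11.15, pandas 2.3.3, numpy 2.4.6 and matplotlib 3.10.9, and the ratio code was tested on simulated data.

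The 34 members, their 7 classes, 15 companion lists with 138 entries (Tp53rk was not matched), the 10 gene pairs and the alternatives were chosen with earlier results of these data known. Most pairs are paralogs, but Thsd7a and Pla2r1 were paired as antigens of the same disease. The text names all members, paralogs set against them and, per companion list, up to 3 highest genes and the lowest; some genes this rule takes are not reported here. Spread is that between 2 libraries, each a pool. Differences between genes within the libraries were not tested, since an exact two-sided sign permutation over 2 libraries cannot give a p below 0.5.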

Additional observations from a re-analysis of the deposited data

How the results depend on the processing

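The labels define 1 group of 2 libraries, so levels are descriptions, and low genes such as Kirrel2 and Trpc6 rest on few counts. No paired analysis was possible because the labels define 1 group, and the comparison of the pools cannot leave out a library. Detection gave 34 members at 0.5 TPM, 23 at 5 TPM, 30 at 1 FPKM, 32 by posterior mean TPM, 31 by lower bound and 32 without either replicate. Class levels, as the log2 ratio of the class median to the median detected gene, kept their sign under posterior mean TPM, FPKM and coding transcripts only. In CPM, which is not scaled to length, all members turned from -0.41 to 0.11 and the apical class from -0.87 to 0.45. Without length scaling the others gave actin 1.86, broad disease genes 0.21, antigens -0.41, adaptors -0.16, slit diaphragm membrane genes -2.53 and transcription factors -0.39. Coding transcripts only gave all members -0.23, actin 1.03, apical -0.60, broad disease genes 0.60, antigens -1.88, adaptors -0.53, slit diaphragm membrane genes -3.03 and transcription factors -1.09. The mean of log2(TPM + 0.1) gave all members -0.66, actin 1.12, apical -0.081, antigens -1.56, adaptors -1.02 and transcription factors -2.33. Leaving out a replicate gave -0.41 to -0.34 for all members and 0.71 to 0.74 for broad disease genes. The first-named gene was higher in 6 of the 10 gene pairs under every alternative run, and no pair's sign turned in 60 recomputed ratios. On coding transcripts only, 2 pairs moved over 1.5 times: Kirrel over Nphs1 from 3.06-fold to 8.33-fold and Myh10 over Myh9 from 2.51-fold to 1.41-fold. No member passed 2-fold under any of the 6 alternatives for the pools, and spike-in scaling moved the members' median absolute log2 ratio from 0.11 to 0.42. Over all genes, 2521 passed 2-fold with no filter and 109 with a filter of 5 CPM, against 356. The leading transcript was shared in 22 members by posterior means, and in 19 of 21 among coding transcripts only. Chosen after the data were seen, FPKM bounds were apart in 7 members in place of 8, and counts in place of TPM left 3 in place of 7 members under 80% coding. Coding transcripts only lowered 3 members over 1.5 times: Nphs1 by 2.73-fold, Pla2r1 by 1.82-fold and Coq8b by 1.51-fold.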

Other observations

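Other genes of nephrotic disease were measured beside the members. Nuclear pore and tRNA modification genes, which nearly all cells use and whose mutations cause steroid-resistant nephrotic syndrome or Galloway-Mowat syndrome, were detected in 10 of 10 cases, with a median of 44.2 TPM. Osgep, the catalytic subunit of the KEOPS complex, was at 145 and 165 TPM in replicates 1 and 2, the nucleoporin Nup85 at 152 and 153 TPM and the KEOPS subunit Lage3 at 88.2 and 94.6 TPM. The lowest, Nup133, was at 26.0 and 25.9 TPM. The list's median thus lay above that of the broadly expressed disease genes among the members. Further nephrotic disease genes were detected in 15 of 16 cases with a median of 16.5 TPM. Sgpl1, the sphingosine phosphate lyase, was at 62.6 and 63.8 TPM, the GTPase-activating protein Dlc1 at 55.3 and 46.6 TPM and the focal adhesion protein Tns2 at 27.5 and 27.3 TPM. The actin-binding protein Avil was lowest, at 0.18 and 0.15 TPM on 12 and 11 counts.

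The rest of coenzyme Q synthesis was detected in 10 of 10 genes with a median of 18.7 TPM. Coq7 was at 116 and 132 TPM, Coq9 at 82.1 and 92.4 TPM and Coq5 at 40.5 and 44.1 TPM. Coq10a, which encodes a coenzyme Q binding protein, was lowest at 1.20 and 3.71 TPM and was the 1 gene of the list past 2-fold between the libraries, at 1.60 on the log2 scale. The cytokinesis partners of anillin were detected in 9 of 9 cases with a median of 49.5 TPM. Rhoa was at 415 and 414 TPM, the mitotic kinase Aurkb at 145 and 148 TPM and Racgap1 at 129 and 120 TPM. Cep55 was lowest at 21.3 and 23.4 TPM, close to Anln itself.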
